A study of Mus musculus with 10 samples.

Results

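The spots described here are the granule-positive spots of 4 mouse liver tumours, chosen by their own counts: at least 3 unique molecular identifiers (UMIs, counted RNA molecules) came from 6 genes of the neutrophil granules, Camp, Ngp, Ltf, Prtn3, Elane and Mpo. They number 6487 among 26022 tissue spots of the tumours and 34133 tissue spots of all 10 sections. Another 10172 tumour spots held none of these UMIs (zero spots) and 9363 held 1 or 2 and took no side. Since one Visium spot may cover more than one cell, a granule-positive spot is a place with granule transcripts and not a neutrophil.

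Sections came from 7 frozen tissues, 4 adjacent ones from NEJ146 and 1 each from NEJ634, NEJ723, NEJ687, NEJ638, NEJ654 and NEJ677. The labels give hepatoblastoma for every sample, while the study's text calls NEJ146, NEJ634, NEJ723 and NEJ687 tumours. It counts 3 healthy livers beside 4 tumours in its spatial data without naming the livers. By exclusion these are NEJ638, NEJ654 and NEJ677. All 4 tumours are ABC-Myc (Alb-Cre;CAG-Myc), a cross in which Cre driven by the albumin promoter of hepatocytes removes a stop cassette before a human MYC transgene; the ages of the animals are not given per section in the sources used here. Each tumour is 1 animal's tissue, the NEJ146 sections are repeated sections of 1 block, and the tumour was therefore the unit of every test.

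Neutrophils are made from promyelocytes through myelocytes to segmented cells, and their granules are filled in that order. Primary granule proteins (the proteases of Prtn3 and Elane, the myeloperoxidase of Mpo) are transcribed in promyelocytes, secondary granule proteins (the cathelicidin of Camp, Ngp, the lactoferrin of Ltf) in myelocytes, and the calcium-binding proteins of S100a8 and S100a9 are kept at a high level into the mature cell. The liver is a blood-forming organ before and around birth, and granule transcripts of the early stages are low in circulating neutrophils.

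The marker genes lie in clusters on 2 of the 3 chromosomes that hold them. On GRCm38, Camp lies at chr9:109847379-109849617, Ngp at chr9:110419747-110423012 and Ltf at chr9:111019271-111042767. Prtn3 (chr10:79874476-79883174) and Elane (chr10:79886247-79888215) are neighbours on chromosome 10, and Mpo lies at chr11:87793581-87804413. RefSeq promoter stretches of Ngp, Ltf and Elane and of some genes that accompanied the trios are printed because these transcripts were found in the same spots. Those of Camp, Prtn3 and Mpo are not printed, since too much of their windows lies inside the gene as annotated in GENCODE M21. Their windows enter the counts below. Each runs 5′ to 3′ on the gene's strand up to the first annotated start of the gene (RefSeq and GENCODE M21), and capitals mark TTGCNNAA, letters of the palindromic C/EBP site, and GAGGAA, the core letters of PU.1 sites, on either strand.
Ngp (secondary trio, chr9:110419558-110419746, + strand): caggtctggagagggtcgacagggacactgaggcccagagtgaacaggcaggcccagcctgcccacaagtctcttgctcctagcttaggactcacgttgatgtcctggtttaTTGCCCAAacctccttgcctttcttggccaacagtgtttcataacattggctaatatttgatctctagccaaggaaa
Ltf (secondary trio, chr9:111019042-111019270, + strand): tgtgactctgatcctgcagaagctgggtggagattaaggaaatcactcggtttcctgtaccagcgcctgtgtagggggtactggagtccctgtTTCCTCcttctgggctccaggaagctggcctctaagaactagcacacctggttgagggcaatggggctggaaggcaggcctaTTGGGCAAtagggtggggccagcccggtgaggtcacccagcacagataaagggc
Elane (primary trio, chr10:79886062-79886246, + strand): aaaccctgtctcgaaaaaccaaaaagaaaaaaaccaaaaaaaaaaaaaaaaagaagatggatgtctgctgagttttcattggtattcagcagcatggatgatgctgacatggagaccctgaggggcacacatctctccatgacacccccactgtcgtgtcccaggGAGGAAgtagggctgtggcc
Ctsg (with the primary trio, chr14:56102575-56102824, - strand): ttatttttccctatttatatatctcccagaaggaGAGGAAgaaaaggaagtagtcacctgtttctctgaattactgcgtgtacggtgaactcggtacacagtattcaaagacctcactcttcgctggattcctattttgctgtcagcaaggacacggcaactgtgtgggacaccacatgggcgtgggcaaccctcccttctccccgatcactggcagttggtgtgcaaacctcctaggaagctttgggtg
S100a8 (with the secondary trio, chr3:90668821-90668977, + strand): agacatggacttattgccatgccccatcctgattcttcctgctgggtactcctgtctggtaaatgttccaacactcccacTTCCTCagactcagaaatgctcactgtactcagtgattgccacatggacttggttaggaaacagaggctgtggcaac
S100a9 (with the secondary trio, chr3:90695722-90695971, - strand): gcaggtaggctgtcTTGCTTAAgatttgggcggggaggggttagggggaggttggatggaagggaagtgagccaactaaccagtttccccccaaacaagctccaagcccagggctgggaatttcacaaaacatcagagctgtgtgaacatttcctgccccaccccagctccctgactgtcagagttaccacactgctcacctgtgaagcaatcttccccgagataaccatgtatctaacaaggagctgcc
Ms4a3 (with the primary trio, chr19:11640852-11641101, - strand): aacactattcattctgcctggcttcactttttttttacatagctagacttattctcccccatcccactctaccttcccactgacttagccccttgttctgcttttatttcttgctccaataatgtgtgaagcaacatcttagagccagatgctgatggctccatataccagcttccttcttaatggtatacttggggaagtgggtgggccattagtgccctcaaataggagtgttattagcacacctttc
Chil3 (with the secondary trio, chr3:106167565-106167814, - strand): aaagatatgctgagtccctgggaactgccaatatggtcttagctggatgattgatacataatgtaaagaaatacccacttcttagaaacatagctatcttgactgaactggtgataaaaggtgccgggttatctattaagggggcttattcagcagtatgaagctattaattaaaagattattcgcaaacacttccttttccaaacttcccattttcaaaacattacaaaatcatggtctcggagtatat
The stretches of Ms4a3 and Chil3 hold neither run of letters and each of the others holds at least 1. Among the 250 upstream bases of 32851 RefSeq windows of 27025 genes, 9.56% held TTGCNNAA and 23.25% held GAGGAA. The 6 marker genes had 6 windows, of which 2 held TTGCNNAA and 4 held GAGGAA. The 12 secondary granule and myelocyte genes listed had 13 windows of 11 genes, of which 4 and 9 held these letters, and the 10 promyelocyte genes had 8 windows of 7 genes, of which 2 and 2 did. A match describes letters and not a bound site.

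The tissue call bears on every share of the tumours with 1 section. The area under the curve by which a section's own call separated its spots by UMIs was 0.928 in NEJ634, 0.731 in NEJ723 and 0.698 in NEJ687, where 1 is complete separation. Of the 6 position files, the section's own separated best in NEJ634. For NEJ723 the calls of NEJ687, NEJ634 and NEJ677 gave 0.817, 0.779 and 0.758, and for NEJ687 those of NEJ634 gave 0.724. Whether each file belongs to its section cannot be told from these values, so tissue spots and shares of NEJ723 and NEJ687 hold only as far as their files do.

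Granule-positive spots made up 9.65%, 17.9%, 14.2% and 11.0% of the tissue spots of NEJ146 sections 1 to 4. NEJ634 had 41.1% (exact 95% binomial limits 38.9 and 43.4%), NEJ723 42.2% (40.1 and 44.3%) and NEJ687 60.8% (59.2 and 62.3%). The shares of the single-section tumours thus lay above every NEJ146 section, though each of these tumours had another depth per spot. NEJ146 also differs from them in the rule for tissue spots (8000 or more UMIs, no tissue call), in molecule label and in processing software. These differences cannot be told apart from a difference between tumours. Thinned to 8000 UMIs a spot, the NEJ146 sections had shares between 5.13% and 9.34%, against 10.4%, 16.7% and 39.2% for NEJ634, NEJ723 and NEJ687, so NEJ634 then lay close to the highest NEJ146 section. In NEJ638, NEJ654 and NEJ677 only 4, 1 and 1 spots reached 3 UMIs, 0.120%, 0.0421% and 0.0417% of their tissue spots. More cells and more RNA per cell cannot be told apart in a spot.

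**Figure D1:**
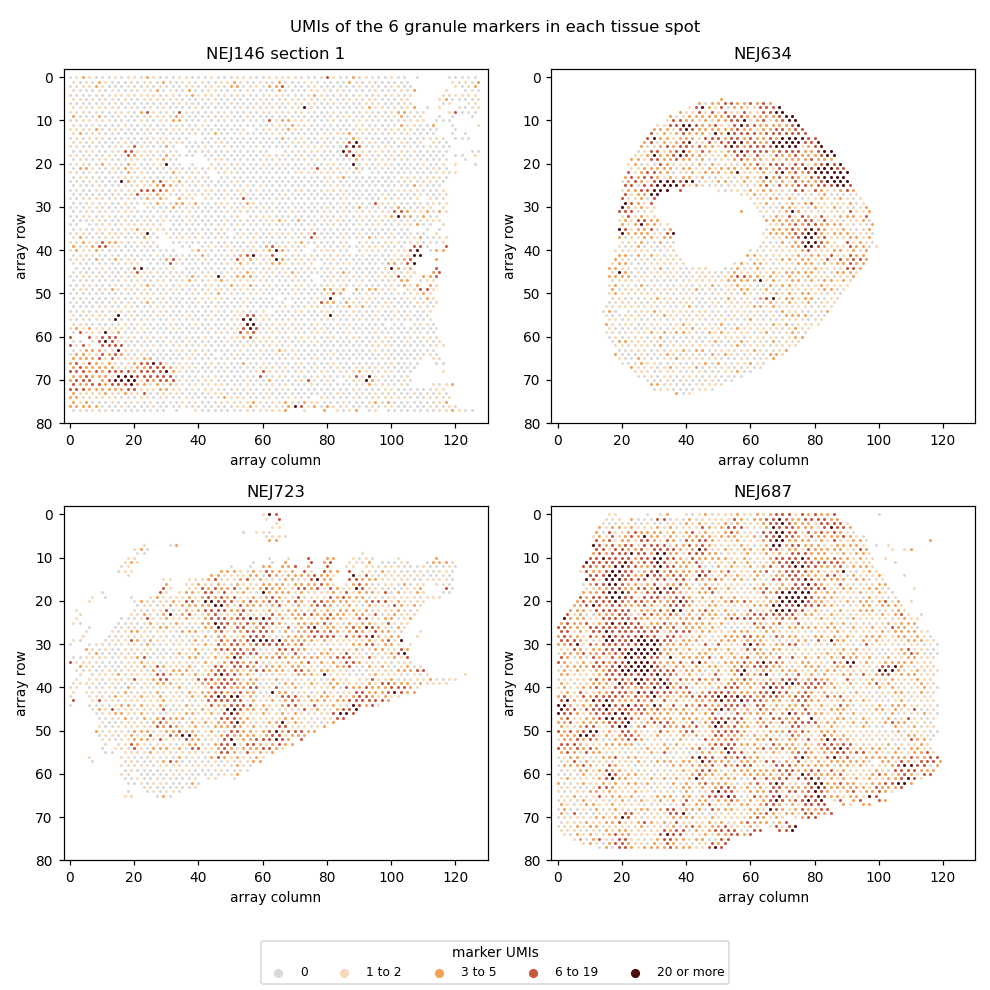
UMIs of the 6 granule markers in each tissue spot, drawn at its array column and row, for NEJ146 section 1 and the single sections of NEJ634, NEJ723 and NEJ687; colours mark 0, 1 to 2, 3 to 5, 6 to 19 and 20 or more UMIs. Spots with 20 or more UMIs number 45, 102, 46 and 229 in these sections and form 29, 31, 33 and 84 connected groups, the largest of 8, 20, 4 and 41 spots.

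The 6 markers chose the spots, so their levels are given without a test. Over all tissue spots Camp stood at 43.5, 87.8, 70.0 and 184 CPM (UMIs per 1e6 UMIs) in NEJ146, NEJ634, NEJ723 and NEJ687, Ngp at 24.9, 59.4, 50.4 and 109 CPM, and Ltf at 9.72, 23.5, 16.3 and 45.5 CPM. Prtn3 stood at 10.0, 12.4, 14.3 and 47.0 CPM, Elane at 1.88, 5.52, 5.94 and 14.2 CPM, and Mpo at 6.61, 15.2, 28.1 and 50.4 CPM. Camp gave the most marker UMIs and Elane the fewest in each tumour, and NEJ687 was highest for all 6. The primary trio (Prtn3, Elane, Mpo) supplied 19.1%, 16.2%, 26.1% and 24.8% of their marker UMIs, in the same order of tumours. Without Prtn3 the shares were 9.80%, 10.8%, 19.9% and 16.0%, which turns the order of NEJ146 and NEJ634. In NEJ638, NEJ654 and NEJ677 the few marker UMIs (342, 78 and 90) were mostly Prtn3, at 4.81, 1.34 and 1.59 CPM beside 0.215, 0 and 0.0511 CPM of Mpo. Whether all Prtn3 UMIs came from neutrophils was not tested.

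The marker UMIs were concentrated. Spots with 20 or more held between 33.0% and 48.9% of all marker UMIs in the NEJ146 sections, against 59.3%, 20.9% and 41.5% for NEJ634, NEJ723 and NEJ687. The richest spots held 758, 588, 117 and 328 marker UMIs in the 4 tumours in that order. Just inside the threshold, spots with exactly 3 marker UMIs had S100a8 and S100a9 together at 311, 217, 168 and 402 CPM in NEJ146, NEJ634, NEJ723 and NEJ687. Just outside it, spots with exactly 2 had 182, 215, 157 and 372 CPM, which is close to the former in all but NEJ146.

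Granule-positive spots lay together. Of the spots that touch a granule-positive spot, 49.8% (NEJ146, mean of 4 sections), 64.1% (NEJ634), 60.6% (NEJ723) and 71.1% (NEJ687) were granule-positive. Of those that touch a zero spot, 4.72%, 18.2%, 21.04% and 38.5% were. The difference was positive in 4 of 4 tumours and averaged 40.8 percentage points ± 6.15 (SD, n = 4). Over all tissue spots, 13.2%, 41.1%, 42.2% and 60.8% were granule-positive in the same order of tumours. Neighbours of granule-positive spots exceeded this share in each tumour, by least in NEJ687. The same marker counts chose the spots, so this is a description with no test. The largest connected patch held 140, 173, 127 and 109 spots in NEJ146 sections 1 to 4. It held 460 and 615 spots in NEJ634 and NEJ723, and 2133 of 2412 granule-positive spots in NEJ687. Patch size changes with the share of granule-positive spots: in NEJ687 the largest held 3022 spots at a threshold of 2 UMIs and 517 at 5. The size that spots placed at random would reach was not computed, so patch sizes do not show that spots lay together.

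Both trios were found in the same spots, again by the counts that chose them. In spots with 2 or more primary trio UMIs the secondary trio stood at 329, 495, 175 and 469 CPM in NEJ146, NEJ634, NEJ723 and NEJ687, against 59.3, 93.3, 125 and 256 CPM in spots with none. The ratio was 5.56 and 5.31 in NEJ146 and NEJ634 and 1.40 and 1.83 in NEJ723 and NEJ687. Read the other way, the primary trio in spots with 2 or more secondary trio UMIs was 3.59, 2.31, 1.38 and 1.38 times its level in spots with none.

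S100a8 and S100a9, which encode the 2 subunits of calprotectin and took no part in choosing spots, climbed with the marker count. Summed, they stood at 84.1, 169, 119 and 350 CPM in the zero spots of NEJ146, NEJ634, NEJ723 and NEJ687, and at 136, 198, 145 and 372 CPM in spots with 1 or 2 marker UMIs. They stood at 383, 270, 195 and 434 CPM in spots with 3 to 5, at 1224, 551, 439 and 719 CPM with 6 to 19, and at 5979, 4019, 1862 and 3136 CPM with 20 or more. Each step was upward in each tumour, a description with no test.

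**Figure D2:**
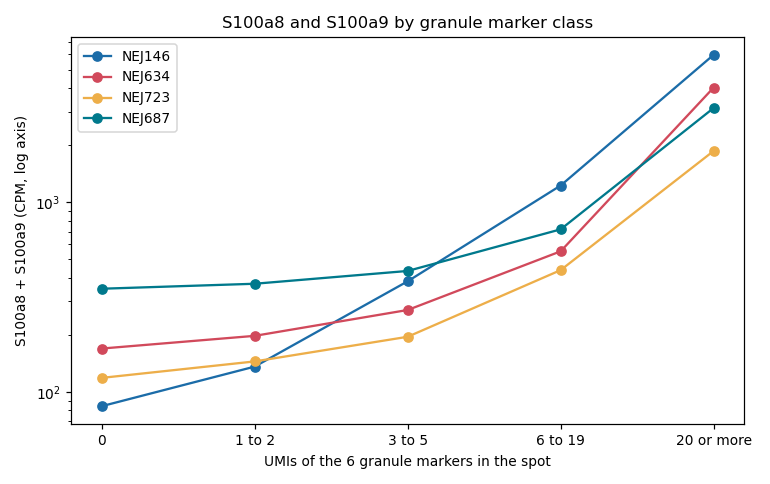
Summed S100a8 and S100a9 in CPM (log axis) over all tissue spots of a tumour with 0, 1 to 2, 3 to 5, 6 to 19 or 20 or more marker UMIs; each line is 1 tumour, with NEJ146 summed over its 4 sections. Every line climbs at each step, and NEJ146 climbs furthest, from 84.1 to 5979 CPM.

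The first comparison set granule-positive against zero spots, summing each side within a tumour. Its depth differed between sides: median UMIs per spot were 34371 against 22322.5 in NEJ634, 22240 against 14575 in NEJ723 and 14850.5 against 9628 in NEJ687, but 18027 against 19451 in NEJ146. No gene of 13697 passed edgeR's quasi-likelihood test at an adjusted p of 0.05, a share of 0%, while 495 had an unadjusted p under 0.05 (3.61%) and DESeq2 called 14, all higher. Over all genes, 554 (4.04%) were higher in granule-positive spots in 4 of 4 tumours and 770 (5.62%) were lower. Leaving out zero spots within 2 array steps of a granule-positive spot gave 83 genes higher (0.606%) and 2 lower, though the zero side then held only 44, 86 and 10 spots of NEJ634, NEJ723 and NEJ687, those of NEJ687 with 36131 UMIs in all. Leaving out NEJ634 or NEJ146 gave 62 and 17 higher.

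Some genes of myelocytes and of the secondary granule came near to the threshold. Cd177, a surface protein of neutrophils, stood at 8.81 against 0.384 CPM in NEJ146, 5.76 against 1.04 in NEJ634, 4.16 against 0.544 in NEJ723 and 5.70 against 1.53 in NEJ687 (log2 difference 3.76 ± 0.39 SE, edgeR adjusted p = 0.0571). Ly6g, the antigen that defines mouse neutrophils, stood at 2.83 against 0.124, 1.73 against 0.346, 0.425 against 0.181 and 1.82 against 0 CPM in the same order. It passed the filter on low values through the granule-positive side alone, so its values are a description with no test. The granule-positive side was above the zero side in each tumour for both, and the gap was widest in NEJ146 for Cd177. Ifitm6, an interferon-induced membrane protein gene of myeloid cells, stood at 12.3 against 1.48, 11.5 against 2.77, 8.18 against 2.18 and 13.1 against 5.82 CPM (2.39 ± 0.26, edgeR adjusted p = 0.0571). Lcn2, the lipocalin of the secondary granule that hepatocytes also make, stood at 156 against 78.8, 173 against 103, 169 against 128 and 182 against 116 CPM (0.73 ± 0.09, edgeR adjusted p = 0.0682). Chil3, a chitinase-like lectin, Mmp8, the neutrophil collagenase, and Itgb2l were also higher in 4 of 4 tumours, with log2 differences of 2.31, 2.53 and 3.13. Of the 12 listed genes of this stage 11 were tested (Ceacam10 was too low). Of the 10 that remain without Ly6g, 7 were higher in 4 of 4 tumours, none was lower in 4 of 4, and the median log2 difference was 1.52 against 0.00 over all genes tested.

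Of 10 promyelocyte and primary granule genes, all tested, Prss57 and Gfi1 passed the filter through the granule-positive side alone and are left out of the count. Of the other 8, 5 were higher in 4 of 4 tumours and the median log2 difference was 1.28. Ctsg, which encodes the primary granule protease cathepsin G, stood at 5.61 against 0.409, 4.96 against 1.04, 10.9 against 4.54 and 14.3 against 5.51 CPM in NEJ146, NEJ634, NEJ723 and NEJ687. Ms4a3, a marker of granulocyte and monocyte progenitors, stood at 2.64 against 0.197, 2.79 against 0.231, 3.07 against 1.45 and 5.39 against 0.919 CPM. Fcnb, a ficolin of immature myeloid cells, was low in NEJ723 on both sides (0.709 against 0.363 CPM) and wider apart elsewhere (4.59 against 0.145 CPM in NEJ146). Serpinb1a, an inhibitor of the granule proteases, went the other way in NEJ146, at 14.8 against 20.8 CPM, and was higher in the other tumours.

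Mature neutrophil genes split. Of 25 listed, 23 were tested (Stfa2 and Stfa3 were too low), 8 were higher in 4 of 4 tumours, and the median log2 difference was 0.60. S100a8 stood at 476 against 30.5 CPM in NEJ146, 384 against 76.1 in NEJ634, 143 against 48.6 in NEJ723 and 360 against 138 in NEJ687 (2.37 ± 0.37 SE, edgeR adjusted p = 0.163), and S100a9 gave 2.32 ± 0.37. Retnlg, a resistin-like gene of neutrophils, and Mmp9, the gelatinase of the tertiary granule, were higher in each tumour by log2 differences of 1.89 and 1.64. Cxcr2, Csf3r and Il1b were not higher in each tumour. Cxcr2, the chemokine receptor by which neutrophils leave marrow, stood at 0.914 against 0.321, 1.21 against 1.498, 0.756 against 0 and 1.64 against 2.45 CPM, higher in NEJ146 and NEJ723 and lower in NEJ634 and NEJ687. Csf3r, the receptor for G-CSF, was higher in 3 tumours and lower in NEJ687 (8.03 against 9.50 CPM), and the log2 difference of Il1b was 0.08 ± 0.18. Differences between these genes and the granule genes were not tested.

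**Figure D3:**
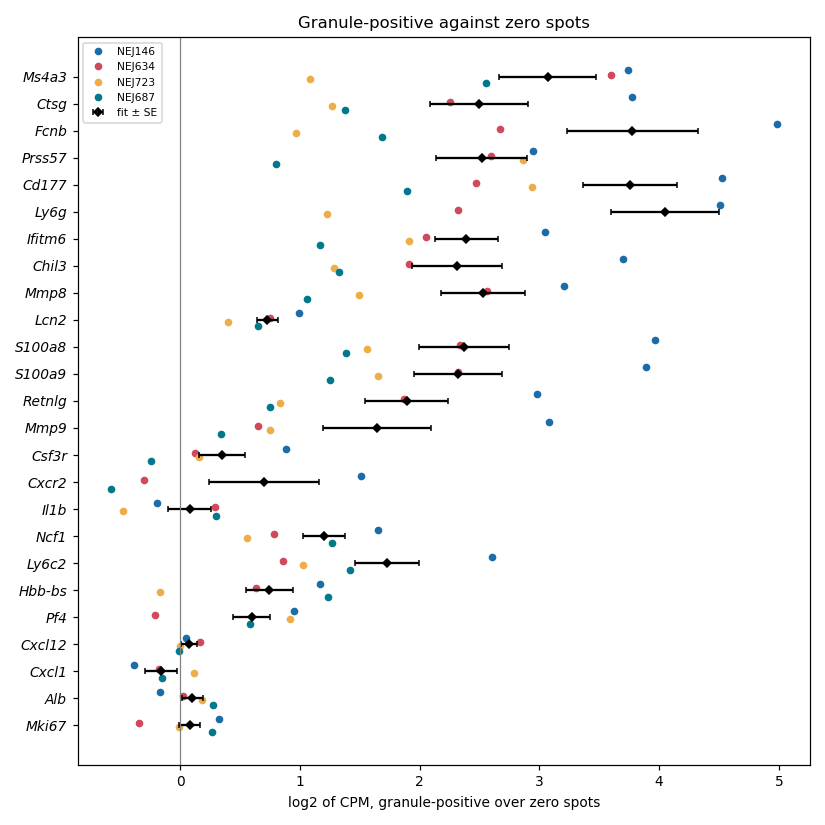
Log2 of CPM in granule-positive over zero spots for 25 genes (rows); coloured points are the 4 tumours, black diamonds the fitted difference with its SE, and a tumour with 0 CPM on a side has no point (Ly6g in NEJ687, Cxcr2 in NEJ723). Granule genes and S100a8 and S100a9 lie to the right of 0 in each plotted tumour, with NEJ146 the farthest for most, while Il1b, Cxcl1, Cxcl12, Alb and Mki67 lie around 0. Prss57 and Ly6g passed the filter through the granule-positive side alone, so their points and diamonds are a description with no test.

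Of the 6 NADPH oxidase genes, which make the oxidant of the phagocyte, 5 were higher in 4 of 4 tumours. Ncf1 stood at 9.91 against 3.16, 12.5 against 7.26, 5.34 against 3.63 and 9.57 against 3.98 CPM (1.20 ± 0.17 SE, edgeR adjusted p = 0.142), and Cyba, which is made by many cells, was lower in NEJ634 and NEJ687. Of 9 myeloid transcription factor genes, Gfi1 passed the filter through the granule-positive side alone. Of the other 8, Cebpe, needed for the secondary granule, and Spi1, which encodes PU.1, were higher in 4 of 4 tumours (log2 differences 1.23 and 0.32).

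Chemokine and homing genes had log2 differences from -0.38 (Ccl4) to 1.09 (Itgam). Of 27 listed, 22 were tested, and Cxcl2 passed the filter through one side alone. Of the other 21, 5 (Ccl6, Csf2rb, Selp, Itgal and Itgam) were higher in 4 of 4 tumours, none was lower in 4 of 4, and the median log2 difference was 0.22. The list summed to 638, 683, 667 and 916 CPM in the zero spots of NEJ146, NEJ634, NEJ723 and NEJ687 and to 930, 867, 845 and 1000.0 CPM in spots with 20 or more marker UMIs. Of the ligands, Ccl6 gave 0.35 ± 0.13 (SE). Cxcl12, which retains neutrophils in marrow, gave 0.08 ± 0.07, at 159 against 154, 204 against 182, 83.2 against 83.1 and 155 against 156 CPM, and Cxcl1, which draws them, -0.16 ± 0.13, at 3.14 against 4.10, 7.34 against 8.30, 8.03 against 7.44 and 11.0 against 12.3 CPM. Cxcl2 was under 4 CPM on each side of each tumour, and Cxcl3, Cxcl5, Csf3, Il6 and Sele were too low to test. Itgam, the integrin chain CD11b, had the largest difference of the list, 1.09 ± 0.27.

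Markers of other blood cells moved with the granule-positive side in some tumours. The 15 erythroid genes, globins included, summed to 7642 CPM in zero spots and 20100 CPM in spots of 20 or more marker UMIs in NEJ146, to 909 and 2753 in NEJ634, to 5065 and 16240 in NEJ687, but to 2963 and 3315 in NEJ723. Hbb-bs stood at 9764 against 4343, 588 against 380, 1247 against 1406 and 5638 against 2402 CPM in granule-positive against zero spots of NEJ146, NEJ634, NEJ723 and NEJ687. It was lower in NEJ723 alone, and 3 of 15 tested erythroid genes, Rhd and Ermap among them, were higher in 4 of 4 tumours, with a median log2 difference over the list of 0.70. The median over 9 megakaryocyte and platelet genes was also 0.70, of which 1 was higher in 4 of 4, and Pf4 was lower in NEJ634, at 45.4 against 52.7 CPM, and higher in the others. Among 3 tested eosinophil, basophil and mast cell genes, Prg2 and Mcpt8 were higher in 4 of 4, while Epx, Prg3, Cpa3, Ms4a2 and Fcer1a were too low to test. Of 15 monocyte and macrophage genes 5 were higher in 4 of 4 (Ly6c2, F13a1, C1qa, C1qb and C1qc), with Ly6c2, which monocytes and immature granulocytes share, at 17.0 against 2.80 CPM in NEJ146 and 20.5 against 7.66 in NEJ687. The part of these cells in the neutrophil values was not tested.

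Non-blood lists had medians near 0, with tumours that went opposite ways in some. Median log2 differences were 0.08 for 10 hepatocyte genes, 0.01 for 6 hepatoblastoma genes, 0.00 for 9 stromal genes, 0.14 for 8 endothelial genes, 0.04 for 8 proliferation genes, 0.23 for 8 acute phase genes, -0.04 for 6 hypoxia genes and -0.26 for 5 bile duct genes, beside 0.10 for 10 lymphoid and -0.06 for 8 stem and progenitor genes. Summed, bile duct genes gave log2 ratios of -0.69 in NEJ634 and 0.83 in NEJ687, and stromal genes -0.53 and 0.32, differences that were not tested between tumours. In NEJ634 Krt19 stood at 28.5 against 67.7 CPM and Col1a1 at 243 against 431, while Krt19 stood at 8.68 against 6.74 in NEJ146. Among hypoxia genes, 2 of 6 were lower in 4 of 4 tumours.

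The second comparison, within granule-positive spots, asked which other genes went with the primary and which with the secondary trio. Spots in which the primary trio gave more UMIs (primary-led) numbered 431, 88, 173 and 476 in NEJ146, NEJ634, NEJ723 and NEJ687, and those led by the secondary trio 1883, 651, 692 and 1770. Without Prtn3, an alternative chosen after seeing the data, primary-led spots numbered 210, 48, 115 and 229, and 12 and 25 genes were called in place of the 13 and 49 that follow, of which 11 and 19 were among them. Of 13747 genes, 13 were higher in primary-led spots (0.0946%) and 49 in secondary-led spots (0.356%) at an edgeR adjusted p under 0.05, 62 in all (0.451%). An unadjusted p under 0.05 was found for 863 (6.28%), and 628 (4.57%) and 1171 (8.52%) were higher in primary-led or in secondary-led spots in 4 of 4 tumours. The trio that leads a spot was fixed by the markers alone, and none of the 6 was tested. Secondary-led spots also held more granule RNA: the 6 markers summed to 673, 416, 343 and 684 CPM there, against 324, 255, 272 and 447 CPM in primary-led spots, and the part of that gap in the differences below was not tested.

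Some promyelocyte genes went with the primary trio. Ctsg stood at 16.6 CPM in primary-led and 2.82 in secondary-led spots of NEJ146, at 17.0 and 3.43 in NEJ634, at 24.1 and 7.47 in NEJ723 and at 31.2 and 9.81 in NEJ687 (log2 difference 1.99 ± 0.12 SE, edgeR adjusted p = 8.39e-11). Ms4a3 stood at 7.56 and 1.40, 8.94 and 1.98, 7.34 and 1.98, and 10.7 and 4.17 CPM (1.90 ± 0.17, edgeR adjusted p = 2.24e-07). The primary-led side was at least 2.58 times the secondary-led side in each tumour for both genes. Of the 10 listed promyelocyte genes 5 rose and none fell, the others being Prss57 (1.32), a serine protease, Cst7 (1.44), a cystatin, and Nkg7 (0.92), a granule membrane gene, and the median of the 9 without Gfi1, which passed the filter through one side alone, was 0.92 against 0.00 over all genes. Fcnb, listed among them, was not called and lay on the secondary-led side in 4 of 4 tumours.

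Further genes rose beside them. Ly6c2, 1 of 15 tested monocyte and macrophage genes called (list median -0.01), was higher in primary-led spots by 0.87 ± 0.09 (edgeR adjusted p = 8.11e-07), at 27.8 and 14.3 CPM in NEJ146 and 33.4 and 17.3 in NEJ687. Prg2, which encodes the major basic protein of eosinophils, rose by 2.04 and Prss34, a protease of basophils, by 1.24; both were under 6 CPM on each side, and together they are 2 of the 3 tested genes of that list. Srgn, the proteoglycan core to which granule proteases bind, rose by 0.49, Saa3, a serum amyloid A gene, by 0.37 and Serpina1e, an antitrypsin of hepatocytes, by 0.25. Of the 8 listed acute phase genes, which do not hold Saa3, 2 (Lcn2 and Orm1) were higher in secondary-led spots and none in primary-led spots, with a median of -0.18. Emb and Zfp141 complete the 13, at 0.62 and 0.55 with adjusted p-values of 0.0483 each in edgeR's test.

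Most secondary granule genes and some mature genes were higher in secondary-led spots. S100a9 stood at 280 CPM in primary-led and 949 in secondary-led spots of NEJ146, at 169 and 525 in NEJ634, at 129 and 254 in NEJ723 and at 264 and 592 in NEJ687 (-1.39 ± 0.07 SE, edgeR adjusted p = 5.63e-12), and S100a8 gave -1.37 ± 0.08. Cd177 stood at 2.52 and 10.6, 1.23 and 6.73, 1.66 and 5.04, and 2.50 and 7.13 CPM (-1.84 ± 0.17, edgeR adjusted p = 2.90e-07). Chil3 stood at 12.1 and 53.1, 13.3 and 38.1, 24.4 and 44.1, and 27.9 and 67.9 CPM (-1.46 ± 0.11, edgeR adjusted p = 3.29e-09). For these genes the secondary-led side was the higher in each tumour, and the ratio was smallest in NEJ723 for S100a9 and Chil3. Of 12 listed secondary granule and myelocyte genes, all tested here, 8 were higher in secondary-led spots (Cd177, Ly6g, Itgb2l, Chil3, Ifitm6, Mmp8, Lcn2 and Wfdc21) and none in primary-led spots, with a median of -1.08 over the 11 without Ceacam10, which passed the filter through one side alone. Of 23 tested mature genes 5 were (BC100530, S100a9, S100a8, Mmp9 and Retnlg, from -1.78 to -0.51), with a median of -0.26. Pglyrp1, a peptidoglycan-recognition protein of the granules, and Olfm4, a secondary granule gene, also lay on that side (-0.79 and -2.64), as did Htra3 (-0.69).

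**Figure D4:**
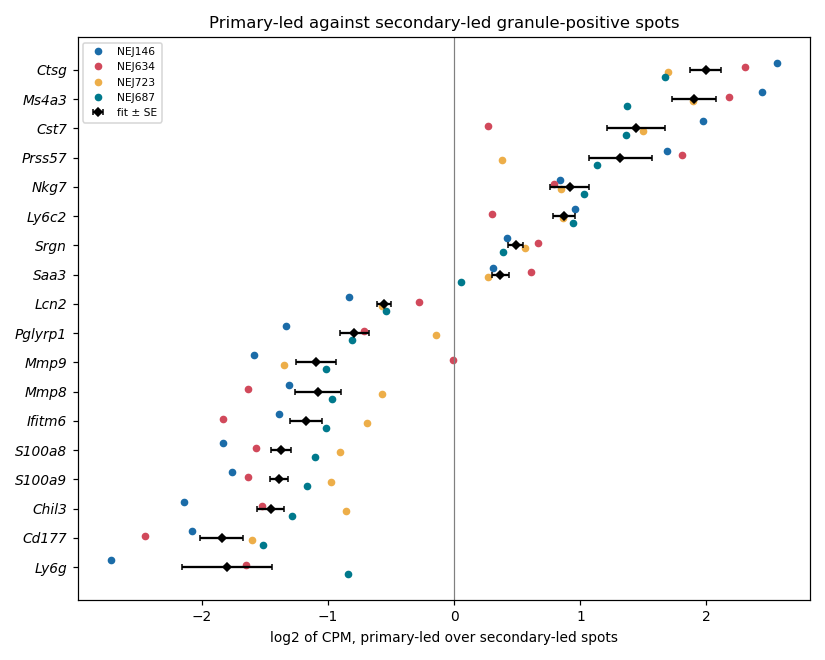
Log2 of CPM in primary-led over secondary-led granule-positive spots for 18 genes; coloured points are tumours, black diamonds the fitted difference with its SE, and Ly6g has no point for NEJ723, where it had 0 CPM in primary-led spots. Ctsg, Ms4a3, Cst7, Prss57, Nkg7, Ly6c2, Srgn and Saa3 lie right of 0 and the 10 genes from Lcn2 to Ly6g left of it in each plotted tumour, with Mmp9 in NEJ634 at the line (7.09 and 7.13 CPM).

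Listed regulators were not called between the stages. This holds for 22 chemokine and homing genes, 9 transcription factor genes, 8 stem and progenitor genes and 8 proliferation genes. Of these, 2, 3, 2 and 2 had an unadjusted p under 0.05. Over all genes 0.451% were called and 6.28% had an unadjusted p under 0.05, so no call in lists this short says little about them. Gfi1, among the 9, passed the filter through one side alone. DESeq2, which called 6 and 12 genes in all, called none of these regulators either. Csf3r gave 0.04 ± 0.14, Cxcr2 -0.26 ± 0.33, and Mki67, a gene of dividing cells, 0.01 ± 0.05. Erythroid genes were not called either (0 of 15, 1 with an unadjusted p under 0.05, median -0.03). Of 10 hepatocyte genes 1 was called, 6 had an unadjusted p under 0.05, and the median was 0.06. The gene called was Cyp2e1, a cytochrome P450 of the liver, higher in secondary-led spots by a log2 difference of -0.35, at 112 and 154 CPM in NEJ146 and 0.947 and 1.34 CPM in NEJ723. Cyp2c50 and Cyp2c29, which are not in that list, gave -0.64 and -0.52, with 0 CPM in primary-led spots of NEJ723, and Cyp2c29 was named after its values were seen. Secondary-led spots of NEJ723 held 1 UMI of Cyp2c50 (0.0638 CPM), so its direction in that tumour rests on 1 count.

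The number of calls depended on the tumours included. Without NEJ146, 5 genes were higher in primary-led spots and 17 in secondary-led spots, of which 5 and 12 were among the 13 and 49; Ctsg, Ms4a3, Ly6c2, S100a8, S100a9, Cd177, Chil3, Ifitm6 and Lcn2 kept an adjusted p under 0.05 in each fit that left out a tumour and with DESeq2. Without NEJ634, 78 genes were higher in secondary-led spots.

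The third comparison looked at the surroundings, setting zero spots that touch a granule-positive spot against zero spots 3 or more array steps from any. The touching spots numbered 1787, 215, 195 and 271 in NEJ146, NEJ634, NEJ723 and NEJ687, and the far ones 5069, 44, 86 and 10. The far spots of NEJ687 hold 36131 UMIs in all, so its values rest on few counts. Of 13656 genes, 12 were higher beside granule-positive spots (0.0879%) and 1 was lower (0.00732%) by edgeR, while DESeq2 called none in either direction; 475 had an unadjusted p under 0.05 (3.48%), and 897 (6.57%) were higher and 620 (4.54%) lower in 4 of 4 tumours.

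S100a8 stood at 47.9 CPM in touching and 23.4 CPM in far zero spots of NEJ146, at 80.04 and 63.4 in NEJ634, at 57.4 and 31.0 in NEJ723 and at 142 and 27.7 in NEJ687 (0.93 ± 0.11 SE, edgeR adjusted p = 1.63e-12). S100a9 stood at 83.4 and 41.6, 102 and 67.0, 77.3 and 59.8, and 213 and 83.0 CPM (0.87 ± 0.11, edgeR adjusted p = 3.63e-10). Touching spots were higher in 4 of 4 tumours for both, though the far values of NEJ687 are 1 UMI of S100a8 and 3 UMIs of S100a9. Against zero spots 2 steps away, touching spots were higher for S100a8 in each tumour and for S100a9 in NEJ146, NEJ634 and NEJ723, while S100a9 in NEJ687 stood at 213 CPM at 1 step and 219 at 2. Both calls were lost without NEJ146, where the log2 differences were 0.74 and 0.68 with edgeR adjusted p-values of 0.178 and 0.155.

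Of the other genes called, Alas2, which starts haem synthesis, Slc4a1, the anion exchanger of red cells, and Rhd belong to the 15 tested erythroid genes (3 higher, none lower, median 0.32). Alas2 stood at 38.0 and 24.7 CPM in NEJ146, at 6.17 and 2.39 in NEJ634 and at 19.3 and 17.2 in NEJ723. NEJ687 alone went the other way, at 38.6 and 55.4 CPM, where the far value is 2 UMIs in 10 spots. The far values of NEJ634 and NEJ723 are also few, 2 and 15 UMIs. In NEJ723 zero spots 2 steps away stood at 24.1 CPM, above the touching spots, while in the other tumours they stood below them. Retnlg was called at 0.83 but was higher in NEJ146 and NEJ687 only. Ppbp, a platelet chemokine, was called at 0.66, with 193.7 CPM in the few far spots of NEJ687. Iglc1, Tmcc2, Tff2 and Apol11b, named after their values were seen, were also called. Serpinb1a was the gene called lower, at 14.6 and 25.1 CPM in NEJ146 but 3.09 and 2.39 in NEJ634. None of 21 chemokine and homing genes was called, beside 0.0952% of all genes tested, and DESeq2 called no gene at all here. Of the 21, 3 had an unadjusted p under 0.05, beside 3.48% of all genes. These counts do not show an absence of change. Cxcl12 had a log2 difference of -0.07 ± 0.11.

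**Figure D5:**
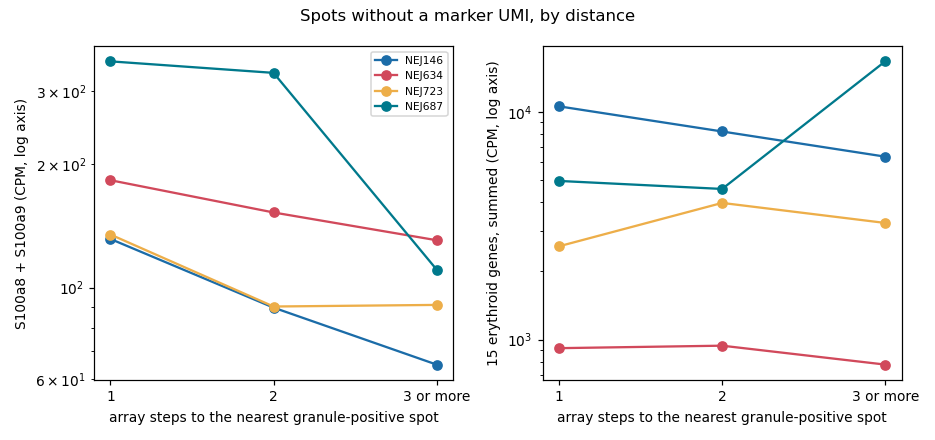
Summed S100a8 and S100a9 (left) and the 15 erythroid genes (right) in CPM (log axes) in zero spots 1, 2 and 3 or more array steps from the nearest granule-positive spot; each line is 1 tumour. S100a8 and S100a9 fall from 131 to 65.0 CPM in NEJ146, while the erythroid sum falls in NEJ146 (10570 to 6356 CPM) and stands at 2568, 3981 and 3251 CPM in NEJ723 and at 4972, 4585 and 16660 CPM in NEJ687, where the last point is 10 spots.

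Several facts of the sections touch all of this. Sections held between 61627315 and 117556249 UMIs, and 4989 of 4992 barcodes occur in all 10 sections, as they name array positions. Spots called off tissue were not free of marker RNA: the 6 markers stood at 369 CPM off and 204 CPM on tissue in NEJ634, at 166 and 185 in NEJ723 and at 780 and 449 in NEJ687. Ignoring the tissue call and keeping all spots of 2000 or more UMIs in these tumours, an alternative chosen after seeing the data, also gave 0 genes in the first comparison.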

How the data were processed

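UMI counts per gene and spot were deposited by the authors as raw, unnormalised counts. The submitters' processing notes name Cell Ranger 6.0 for NEJ146 and Space Ranger 1.3 with mm10 for the other sections; the build of the NEJ146 counts is not given in the sources used here. The molecule label is total RNA for NEJ146 and polyA RNA for the others. Tissue spots had an in-tissue call in the position file and 2000 or more UMIs; NEJ146, with no position file used, took spots of 8000 or more UMIs and array coordinates from the same barcodes in other sections. No doublet caller was run on spots. Samples were grouped by tissue name in the labels.

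Counts were summed per side and tumour and tested in edgeR 4.0.16 (R 4.3.3; quasi-likelihood F test, TMM, tumour as a term), over genes with 0.5 CPM or more in at least 2 tumours, Benjamini-Hochberg adjusted. The 6 markers stayed in library totals and out of the tests. The fits were tested on simulated data. DESeq2 1.42.0 was an alternative; others are given at the end. Genes were named by fixed lists (20 lists, 208 of 209 genes in the files) and as the 10 largest called differences in each direction with the same sign in 4 of 4 tumours and 5 CPM or more; Olfm4, Emb, Cyp2c29 and the genes called beside granule-positive spots that fall outside this rule were named after their values were seen. Members and lists were chosen with earlier results of these data known. A few listed or called genes are not reported here. Positions come from GENCODE M21 by identifier. Intervals cover counting error only. With 1 animal per tumour, p-values concern these 4 tumours only. edgeR estimates spread partly over all genes, so a small p-value does not measure how well the tumours agree. S100a8 and S100a9, called beside granule-positive spots, were not called there without NEJ146.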

Additional observations from a re-analysis of the deposited data

Results flagged for a closer look

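Spots called off tissue carried the markers in the tumours with 1 section: 41.0%, 19.1% and 29.6% of them were granule-positive in NEJ634, NEJ723 and NEJ687, beside 41.1%, 42.2% and 60.8% of the tissue spots. They enter the comparisons only in the alternative that ignored the tissue call.

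In the log2 ratio of summed CPM of granule-positive over zero spots, all 4 NEJ146 sections went one way and another tumour the other way for several lists; these differences were not tested. For erythroid genes the NEJ146 sections lay at 1.38, 0.81, 1.20 and 1.46, and NEJ723 at -0.16. For megakaryocyte and platelet genes the sections lay between 0.47 and 1.61 and NEJ634 at -0.17. NADPH oxidase genes gave -0.24 in NEJ634 and -0.10 in NEJ687, myeloid transcription factor genes -0.0238 in NEJ723, hepatoblastoma genes -0.13 in NEJ687, proliferation genes -0.20 in NEJ634 and -0.0656 in NEJ723, and hypoxia genes -0.0602 in NEJ634 and -0.14 in NEJ687, each with NEJ146 above 0. Hepatocyte genes gave 0.0464, 0.0989 and 0.0512 in NEJ634, NEJ723 and NEJ687, and acute phase genes 0.231, 0.148 and 0.0530, with NEJ146 below 0.

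For bile duct genes NEJ146 section 1 stood apart, at -0.26 against 0.22, 0.30 and 0.22 in sections 2 to 4; its gap to the nearest section was 0.853 of the range. Among 32 such values of the NEJ146 sections examined this was the 1 past the limit, and chance puts about 1 in 20 there.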

How the results depend on the processing

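The first comparison called 0 genes in either direction. Genes higher in granule-positive spots numbered 14 with DESeq2, 24 without the CPM filter, 17 with spots matched on UMIs as far as they could be (medians stayed apart in NEJ634, 27990 against 22322.5, and NEJ723, 16921 against 14575), 3 and 7 with thresholds of 2 and 5 marker UMIs, 83 with zero spots within 2 steps left out, 21 and 4 with the side chosen by the primary or the secondary trio, and 2 without Prtn3 (chosen after seeing the data). Leaving out a tumour gave between 0 and 62 (17 without NEJ146, 62 without NEJ634). Lower genes stayed at 0 except 2 with the nearest zero spots left out. All 18 genes followed kept their direction, in 337 of 337 gene values over these alternatives. These genes are among those named in the text, chosen with earlier results of these data known. Most alternatives reuse the same spots, so a kept direction is not independent support for the differences.

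The second called 13 and 49. Genes higher in primary-led spots numbered 6 with DESeq2, 22 without the filter, 5 with a strict filter, 7 with section 1 of NEJ146 alone, 23 with spots of one trio only, 6 with depth-matched spots and 0 with no replicate block (no tumour term); those higher in secondary-led spots numbered 12, 112, 30, 19, 67, 31 and 0, and 25 without Prtn3. Leaving out a tumour gave between 5 and 14 and between 17 and 78.

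The third called 12 and 1. Genes higher beside numbered 0 with DESeq2, 22 without the filter, 37 with matched spots (in NEJ723 medians stayed apart, 12017 against 9580 UMIs) and 0 without the tumour term; lower genes numbered 0, 4, 82 and 0, 2 with library totals, 5 with section 1 of NEJ146 alone and 3 at 4 or more steps. Leaving out a tumour gave between 0 and 63 higher (0 without NEJ146, 63 without NEJ634, 4 without NEJ723, 2 without NEJ687) and between 0 and 85 lower (85 without NEJ634). Ppbp reversed to -0.66 with section 1 of NEJ146 alone, and Serpinb1a, between -0.80 and 0.43 with a tumour left out, to 0.43 without NEJ146. The causes were not tested.

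Shares of granule-positive spots in NEJ146, NEJ634, NEJ723 and NEJ687 were 23.1%, 57.7%, 60.6% and 77.1% at 2 UMIs, 6.90%, 21.4%, 22.4% and 35.1% at 5, and 6.64%, 10.4%, 16.7% and 39.2% thinned; a higher UMI minimum gave 62.3% in NEJ687. The adjacency difference stayed between 30.4 and 46.6 points. The tumour term is the replicate block that pairs each tumour's sides; without it 0 genes were called in each comparison. Depth limits the far spots of NEJ687 most.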
